A study of Homo sapiens with 3 samples.

Results

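The 40 genes described here encode subunits of ATP-dependent chromatin remodelling complexes: 25 BAF/PBAF genes, 9 NuRD genes and 6 ISWI/INO80 genes. They were taken from the subunit lists of these complexes by gene symbol, with every single guide RNA (sgRNA) named for a listed symbol. They made up 396 sgRNAs of the 189398 gene-targeting sgRNAs in the library, and 40 of its 20381 genes. The rule uses no measured value.

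The data came from a pooled CRISPR knockout screen for genes that alter surface MHC class I (MHC-I) in K562, an established human leukaemia line with low MHC-I. K562 cells expressing Cas9 received the Bassik Human CRISPR KO Library at 0.3 viruses per cell and were selected with puromycin at 1 μg/mL for 72 h from 48 h after infection, and the sgRNAs were then counted in genomic DNA. There were 3 libraries, with 1 library per group, so that no difference between groups had a replicate check. The HLA-B high sorted library (the HLA-B high sort) came from cells given interferon-γ (IFN-γ) at 1 ng/mL for 24 h and sorted for high HLA-B on days 18 and 25. The high-screen control, called the high-screen pool here, was unsorted cells of that screen. The low-screen control, called the low-screen pool, was unsorted cells of the screen for MHC-I low cells, which used 25 ng/mL IFN-γ and sorts on days 7 and 15. The labels give neither the harvest day of either pool nor whether a pool received IFN-γ itself, and the title of the low-screen pool names another antibody than its deposited name does. The cell type was taken from the labels, since sgRNA counts carry no expression markers.

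Remodelling complexes use ATP to slide, evict or space nucleosomes. BAF complexes are built around the ATPase SMARCA4 (BRG1) or SMARCA2 (BRM) and are known to counteract polycomb repression, the form of silencing known for MHC-I genes in some MHC-I low cancers. NuRD joins a CHD-family ATPase to the histone deacetylases HDAC1 and HDAC2 and mostly acts in repression, while ISWI ATPases space nucleosomes and INO80 moves nucleosomes around promoters and at sites of replication and repair. The screen bears on whether loss of any of these subunits raises surface HLA-B.

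Matched reads numbered 34266318 in the HLA-B high sort, 22562241 in the high-screen pool and 98426251 in the low-screen pool. The sorted library was sparse, and listed 49.2% of gene-targeting sgRNAs, against 97.7% in the high-screen pool and 93.4% in the low-screen pool. The 40 genes followed the library in this, with 194 of 396 sgRNAs (49.0%) listed in the HLA-B high sort, 389 (98.2%) in the high-screen pool and 369 (93.2%) in the low-screen pool. Knockouts that the sort did enrich stood far from this background: EZH2, the catalytic subunit of PRC2, had 7 of 9 sgRNAs above a log2 ratio of 1 in the HLA-B high sort over the high-screen pool and a median of 5.28, and MEN1, encoding Menin, had 7 of 8 and a median of 5.33. The reads are PCR reads without molecular identifiers, so that the intervals given below cover counting error only.

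In the HLA-B high sort, no BAF/PBAF, NuRD or ISWI/INO80 gene was called as enriched or depleted. Genes were scored by redundant siRNA activity (RSA), which asks whether a gene's sgRNAs cluster at 1 end of the ranking of all sgRNAs by log2 ratio, and a gene was called when its RSA p was below 0.001 and 4 or more of its sgRNAs reached the best rank. Against the high-screen pool 0 of 40 genes were called enriched, where 0.532% of all genes tested were, and 0 of 40 were called depleted, against 0.418% of all genes. With the low-screen pool as reference 0 of 40 were called enriched, against 0.645% of all genes, and 0 of 40 depleted, against 0.586%. With shares this small over all genes, a count of 0 among 40 says little about the complexes.

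The same picture held without the call threshold. An exact p was computed for each RSA score from its null under random ranks; it measures how far a gene's sgRNAs go together inside these libraries, and not a difference between conditions. Against the high-screen pool 0 of 40 genes had an unadjusted exact p below 0.05 for enrichment, where 5.24% of all genes did, and 1 of 40 (BCL7A) had it for depletion, against 5.68%. With the low-screen pool 2 of 40 genes (ARID1B and ACTL6B) had it for enrichment, against 5.49% of all genes, and 1 of 40 (BPTF) for depletion, against 5.67%. After Benjamini-Hochberg adjustment over all genes the lowest adjusted exact p among the 40 was 0.933 for enrichment and 0.846 for depletion against the high-screen pool. Over the low-screen pool it was 0.811 for enrichment and 0.848 for depletion. The sorted library entered both comparisons, so that they are not independent.

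Gene medians of the log2 ratio lay far below 0 for the remodellers as for the rest of the library, and most sgRNAs had few or no reads after sorting. All 40 genes had a median below 0 in both comparisons, as did 97.2% of all genes against the high-screen pool and 97.1% against the low-screen pool. Against the high-screen pool the median of the 40 gene medians was -4.91, against -4.54 over all genes, and 38 of 40 lay below -1, against 90.7% of all genes. Against the low-screen pool the values were -5.75 for the 40 genes and -5.62 for all genes, and 36 of 40 lay below -1, against 91.4%. No member had a median above 1, where 0.556% of all genes did against the high-screen pool and 0.601% against the low-screen pool. The median sorted level was 0 for 20 of the 40 genes, against 42.7% of all genes. For those genes the size of the ratio is set by the reads in the pool and by the pseudocount, and the order among the lowest medians carries little information.

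**Figure D1:**
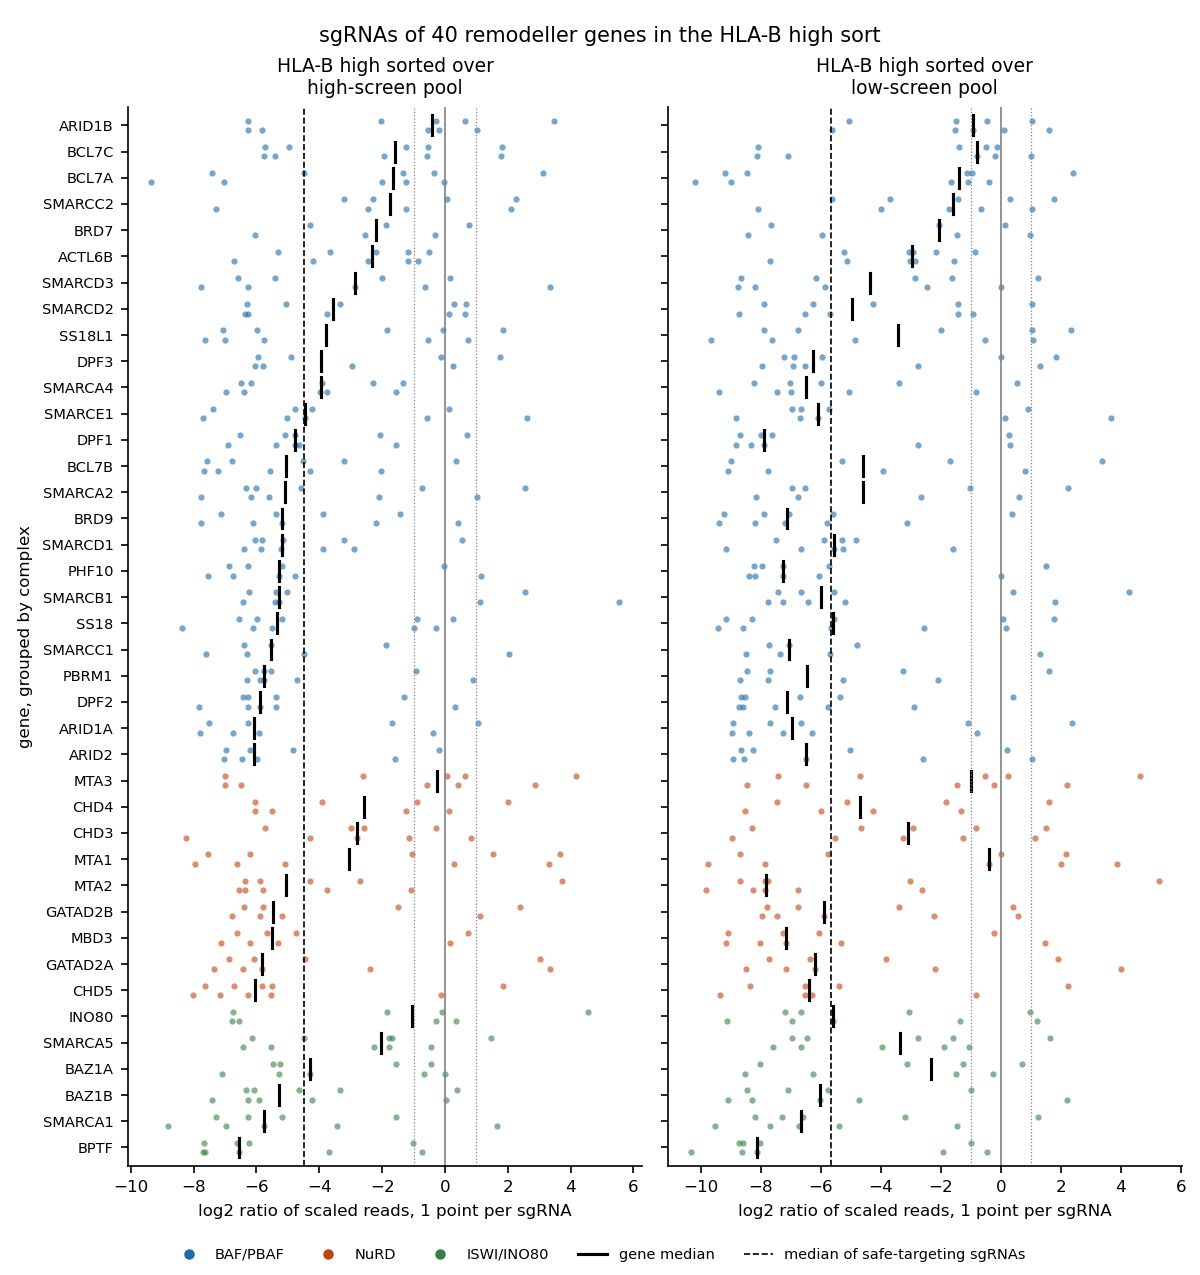
Log2 ratio of each sgRNA (points, x axis) for the 40 genes (y axis, grouped and coloured by complex, ordered by median within each complex), in the HLA-B high sort over the high-screen pool (left) and over the low-screen pool (right). Black bars are gene medians and dotted lines stand at -1 and 1. The dashed line is the median of the safe-targeting sgRNAs (-4.49 left, -5.67 right). Every gene median shown lies below 0, as do those of 97.2% (left) and 97.1% (right) of all genes. The points to the right of 1 are scattered over many genes, with at most 3 in any gene.

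The BAF ATPases were among the plainest cases. SMARCA4 (BRG1, chr19:11071608-11190102 on GRCh37, plus strand) had summed reads of 5.63 CPM (reads scaled to a total of 1000000) in the HLA-B high sort, 35.7 CPM in the high-screen pool and 48.7 CPM in the low-screen pool. All 10 of its sgRNAs were below a log2 ratio of -1 against the high-screen pool, with a median of -3.94 and a range of -6.97 to -1.32. Its exact p for depletion was 0.120, and its median stood at the percentile 59.9 among all genes, since ratios of this size were the rule in the sort. Requiring at least 50 reads in the high-screen pool put the median at -6.17. Its paralog SMARCA2 (BRM) had summed reads of 55.0 CPM in the sorted library, 48.0 CPM in the high-screen pool and 54.1 CPM in the low-screen pool. That level rested on 2 sgRNAs with 1052 and 641 sorted reads, while 7 of its 10 sgRNAs lay below -1 against the high-screen pool and the gene median was -5.09.

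SMARCB1 (SNF5, a core subunit of BAF and PBAF, chr22:24129118-24180196, plus strand) had the lowest exact p of the 40 genes for enrichment against the high-screen pool. Its summed reads were 80.5 CPM in the HLA-B high sort, 16.6 CPM in the high-screen pool and 23.4 CPM in the low-screen pool. A single sgRNA held 84.1% of its sorted reads, with 2321 reads in the sort, 32 in the high-screen pool and 341 in the low-screen pool, and a log2 ratio of 5.54 over the high-screen pool. The next 2 sgRNAs had 351 and 87 sorted reads and log2 ratios of 2.54 and 1.12, and 6 others had 0 reads in the sort. The gene median was therefore -5.29, with an exact p of 0.0556 and an adjusted p of 0.933 for enrichment. BCL7C followed closely with an exact p of 0.0581, and its RSA p was the lower, at 0.00941 against 0.00960 for SMARCB1. The best rank of SMARCB1 was reached by 1 sgRNA only. With 3 sgRNAs above 1, SMARCB1 and MTA1 had the highest count of any of the 40 genes against the high-screen pool. No member had 4, against 2.02% of all genes.

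The 6 other core subunits also had medians below 0 in both comparisons. SMARCC2 (BAF170) had the highest median of the group, at -1.76 against the high-screen pool and -1.58 against the low-screen pool, with 2 sgRNAs above 1 in each. Its paralog SMARCC1 (BAF155) had 755 of its 769 sorted reads in 1 sgRNA and medians of -5.53 against the high-screen pool and -7.05 against the low-screen pool. SMARCD1, SMARCD2, SMARCD3 (BAF60A, B and C) and SMARCE1 (BAF57) had medians between -5.20 and -2.86 against the high-screen pool. Across all 7 core genes 8 of 62 sgRNAs (12.9%) were above 1 against the high-screen pool, close to the 12.6% of all gene-targeting sgRNAs.

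Among subunits that define the BAF subtypes, ARID1B stood highest and its paralog ARID1A among the lowest. ARID1B (BAF250B, a subunit of canonical BAF, chr6:157097154-157531913, plus strand) had summed reads of 52.0 CPM in the HLA-B high sort, 48.0 CPM in the high-screen pool and 57.3 CPM in the low-screen pool. Unlike most members its sorted reads were spread over 8 listed sgRNAs, of which the largest held 36.2%. Its median was -0.41 against the high-screen pool (percentile 94.9 of all genes) and -0.93 against the low-screen pool (percentile 91.8), and its exact p for enrichment was 0.123 against the high-screen pool. Against the low-screen pool the exact p was 0.0119 and the adjusted p 0.811, reached with 9 of 9 sgRNAs at or above the best rank. The best rank was that of its lowest tested sgRNA, at -5.63, and 2 sgRNAs were above 1. The score thus rested on the lack of tested sgRNAs farther down the ranking. The sgRNA left out of this comparison had 0 sorted reads, 44 reads in the high-screen pool and 0 in the low-screen pool. ARID1A (BAF250A) had summed reads of 15.5 CPM in the sorted library, 38.9 CPM in the high-screen pool and 37.5 CPM in the low-screen pool, with 7 of its 10 sgRNAs at 0 in the sort. Its medians were -6.09 against the high-screen pool and -6.96 against the low-screen pool.

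The remaining subtype subunits were low in the sort, as most genes were. Their medians against the high-screen pool ranged from the percentile 13.3 of all genes (ARID2) to 78.9 (BRD7). For DPF1 (BAF45B) 7 of 10 sgRNAs had 0 sorted reads, and the summed reads were 13.2 CPM in the sorted library, 30.9 CPM in the high-screen pool and 41.2 CPM in the low-screen pool. The DPF1 median was -4.78 against the high-screen pool (percentile 45.3) and -7.90 against the low-screen pool (percentile 4.72). The PBAF subunits ARID2, PBRM1, BRD7 and PHF10 had 1 of 32 sgRNAs (3.12%) above 1 against the high-screen pool, where 12.6% of all gene-targeting sgRNAs were. Against the low-screen pool they had 3 of 34 (8.82%), where 13.2% were. The difference was not tested. ARID2 (BAF200) had summed reads of 6.89 CPM in the sorted library, 31.7 CPM in the high-screen pool and 43.5 CPM in the low-screen pool, and a median of -6.09 against the high-screen pool. BRD9, the bromodomain subunit that defines non-canonical BAF, had no sgRNA above 1 in either comparison. Its summed reads were 5.49 CPM in the sorted library, 25.5 CPM in the high-screen pool and 53.9 CPM in the low-screen pool.

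The BCL7 subunits and ACTL6B show how the score and the median can part. BCL7A had summed reads of 33.5 CPM in the HLA-B high sort, 67.4 CPM in the high-screen pool and 71.7 CPM in the low-screen pool, and a median of -1.66 against the high-screen pool, higher than 84.4% of genes. Its exact p of 0.0279 for depletion came from 1 sgRNA, with 0 sorted reads, 513 reads in the high-screen pool and a log2 ratio of -9.34. The adjusted p was 0.846. BCL7C had summed reads of 38.7 CPM in the sorted library, 81.3 CPM in the high-screen pool and 64.8 CPM in the low-screen pool, with medians of -1.60 against the high-screen pool and -0.81 against the low-screen pool. ACTL6B (BAF53B, a subunit of neuronal BAF) had summed reads of 12.7 CPM in the sorted library, 60.8 CPM in the high-screen pool and 69.3 CPM in the low-screen pool. It was listed in the sort with 9 of 10 sgRNAs, more than any other member, and all of its ratios were below 0. Its exact p of 0.0372 for enrichment against the low-screen pool (adjusted p 0.873) thus belonged to a gene whose sgRNAs were evenly lower, with a median of -2.98 and a highest ratio of -0.85.

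NuRD was the complex with the most reads in the sort. The 9 NuRD genes together had 653 CPM in the HLA-B high sort, 377 CPM in the high-screen pool and 429.8 CPM in the low-screen pool, a ratio of 1.73 over the high-screen pool and 1.52 over the low-screen pool. BAF/PBAF genes had a ratio of 0.632 over the high-screen pool and 0.567 over the low-screen pool. For ISWI/INO80 genes it was 0.519 over the high-screen pool and 0.468 over the low-screen pool. The NuRD surplus lay in MTA1, MTA3 and GATAD2A, a set picked after its values were seen. Without them NuRD had 160.1 CPM in the sorted library, 219.8 CPM in the high-screen pool and 270.3 CPM in the low-screen pool. The 3 largest NuRD sgRNAs, which belong to MTA1, GATAD2A and MTA3, held 51.9% of all NuRD reads in the sort.

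MTA1 (a scaffold that binds HDAC1 and HDAC2, chr14:105886157-105937066, plus strand) had the most sorted reads of the 40 genes, with 212 CPM in the HLA-B high sort, 67.8 CPM in the high-screen pool and 68.8 CPM in the low-screen pool. Its largest sgRNA had 4921 sorted reads, 258 in the high-screen pool and 967 in the low-screen pool. Smaller numbers of sorted reads, 868, 693, 652 and 147, came from 4 more sgRNAs, and the other 5 had 0. Against the high-screen pool 3 sgRNAs were above 1 and 6 below -1, the median was -3.06, and the exact p for enrichment was 0.0869. Against the low-screen pool the median was -0.41 over 9 of 10 sgRNAs, with an exact p of 0.116. The sgRNA left out there had 0 sorted reads, 77 in the high-screen pool and 0 in the low-screen pool. The 2 medians therefore do not cover the same sgRNAs. In both comparisons MTA1 held sgRNAs at both ends of the ranking.

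MTA3 had summed reads of 139 CPM in the sorted library, 37.9 CPM in the high-screen pool and 48.3 CPM in the low-screen pool. The 2 sgRNAs with 2818 and 1296 sorted reads held most of these, and 3 of 10 had none. Its median was the highest of the 40 against the high-screen pool, at -0.25 (quartiles -5.52 and 0.59), and it was 0.24 when at least 50 reads were required in that pool. Against the low-screen pool the MTA3 median was -0.99. MTA2 had fewer sorted reads, with summed reads of 20.4 CPM in the sorted library, 23.7 CPM in the high-screen pool and 51.7 CPM in the low-screen pool. For MTA2, 631 of 700 sorted reads came from 1 sgRNA with a log2 ratio of 5.26 over the low-screen pool, and 7 of 10 sgRNAs had 0 reads. The MTA2 median was -5.05 over the high-screen pool and -7.82 over the low-screen pool.

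GATAD2A (p66 alpha, which links the deacetylase and remodelling parts of NuRD) had summed reads of 142 CPM in the HLA-B high sort, 51.5 CPM in the high-screen pool and 42.4 CPM in the low-screen pool. Of 9 sgRNAs 2 carried 3872 and 920 sorted reads and 7 lay below -1 against the high-screen pool, which gave a median of -5.82 and an exact p of 0.106 for enrichment. The NuRD ATPase CHD4 had 30.9 CPM in the sorted library, 27.0 CPM in the high-screen pool and 37.7 CPM in the low-screen pool. A single sgRNA held 87.0% of its sorted reads, and its median was -2.58 against the high-screen pool and -4.69 against the low-screen pool. Its paralogs had medians against the high-screen pool of -2.81 (CHD3) and -6.04 (CHD5).

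**Figure D2:**
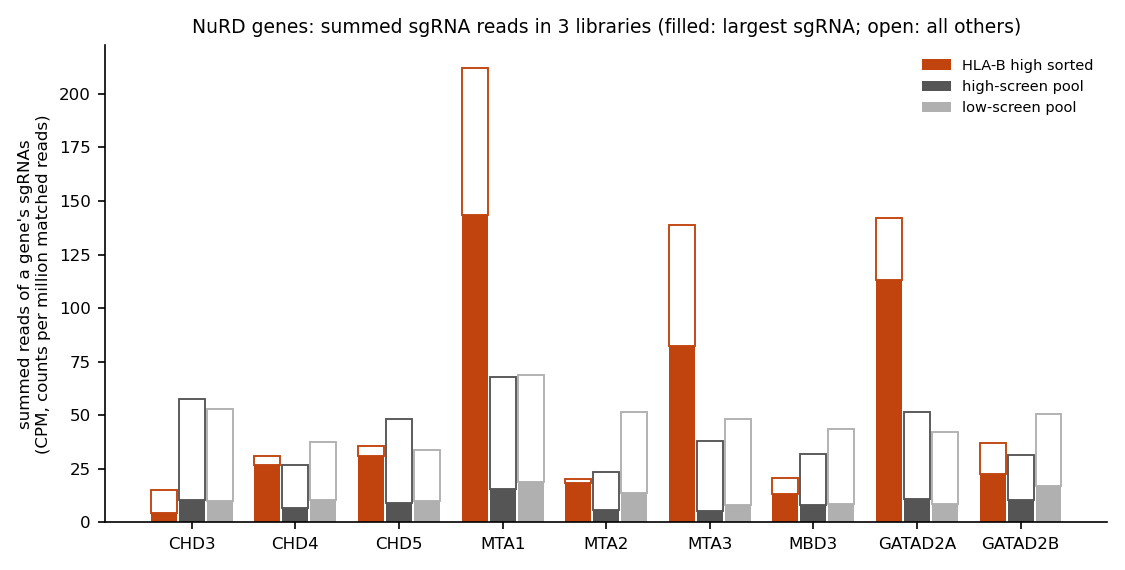
Summed sgRNA reads of each NuRD gene (y axis, CPM) in the HLA-B high sort, the high-screen pool and the low-screen pool (1 library each, so no error bars). The filled part of each bar is the largest sgRNA of the gene in that library and the open part all its other sgRNAs; MTA1, MTA3 and GATAD2A reach 212, 139 and 142 CPM in the sort, where their largest sgRNAs hold 67.6%, 59.4% and 79.6% of the reads.

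Such concentration of reads in 1 sgRNA was seen across the library in the sort. The largest sgRNA held more than 50% of the sorted reads in 29 of 40 genes (72.5%), against 69.6% of all genes with sorted reads. In the high-screen pool it did so in 0 of 40 genes, against 5.41% of all genes with reads there. In the low-screen pool it did so in 1 of 40 (BRD7, 54.7%), against 5.49%. Summed sorted reads were above the high-screen pool by more than 2-fold in 4 of 40 genes (SMARCB1, MTA1, MTA3 and GATAD2A), or 10.0%, against 10.7% of all genes. The share over the low-screen pool was also 10.0%, against 11.7% of all genes.

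ISWI and INO80 genes gave no enrichment. SMARCA5 (SNF2H, the main ISWI ATPase) had summed reads of 33.1 CPM in the HLA-B high sort, 62.6 CPM in the high-screen pool and 77.4 CPM in the low-screen pool, with 1 of 10 sgRNAs above 1 and a median of -2.02 against the high-screen pool. BPTF (the largest subunit of NURF, chr17:65821619-65980494, plus strand) had the lowest median of the 40 in both comparisons. Its summed reads were 8.35 CPM in the sorted library, 53.3 CPM in the high-screen pool and 60.9 CPM in the low-screen pool. In the sort 3 of its 10 sgRNAs were listed, with 144, 122 and 20 reads, and its median was -6.56 against the high-screen pool and -8.13 against the low-screen pool. The exact p for depletion was 0.135 against the high-screen pool and 0.0312 (adjusted p 0.848) against the low-screen pool. BPTF also had a high level in the pools, at the percentile 94.0 of all genes in the high-screen pool and 84.5 in the low-screen pool, which gives an sgRNA lost from the sort a more negative ratio.

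INO80 (the ATPase of the INO80 complex) had summed reads of 47.7 CPM in the sorted library, 33.9 CPM in the high-screen pool and 41.9 CPM in the low-screen pool. Of these, 65.4% in the sort came from 1 sgRNA with 1069 reads, which had 29 reads in the high-screen pool and 0 in the low-screen pool. Its median of -1.06 against the high-screen pool, which only ARID1B and MTA3 exceeded, was -6.54 when at least 50 reads were required in that pool, and it was -5.61 against the low-screen pool. The sgRNA with 1069 sorted reads was not tested against the low-screen pool. Conversely, 2 sgRNAs with 0 reads in the high-screen pool were tested only against the low-screen pool. The partner subunits BPTF, BAZ1A (ACF1) and BAZ1B (WSTF) had 0 of 28 sgRNAs above 1 against the high-screen pool, where 12.6% of all gene-targeting sgRNAs were. Against the low-screen pool they had 1 of 26 (3.85%), where 13.2% were. The difference was not tested, and the counts are small.

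At the level of sgRNAs the 40 genes were not distinguishable from all gene-targeting or from safe-targeting sgRNAs at this depth. Against the high-screen pool 34 of 365 sgRNAs (9.32%) were above a log2 ratio of 1, with a 95% Clopper-Pearson interval of 6.54% to 12.8%, against 12.6% of all gene-targeting sgRNAs and 11.7% of safe-targeting sgRNAs, which cut sites without known function. NuRD had 12 of 82 (14.6%, interval 7.80% to 24.2%), BAF/PBAF 19 of 228 (8.33%, 5.09% to 12.7%) and ISWI/INO80 3 of 55 (5.45%, 1.14% to 15.1%). Against the low-screen pool the share was 40 of 369 (10.8%, 7.86% to 14.5%), against 13.2% of all gene-targeting and 12.2% of safe-targeting sgRNAs. The interval of the 40 genes held the share of all gene-targeting and of safe-targeting sgRNAs in both comparisons. The sgRNAs of 1 gene share their target, so that these intervals, which treat sgRNAs as independent, are too narrow.

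**Figure D3:**
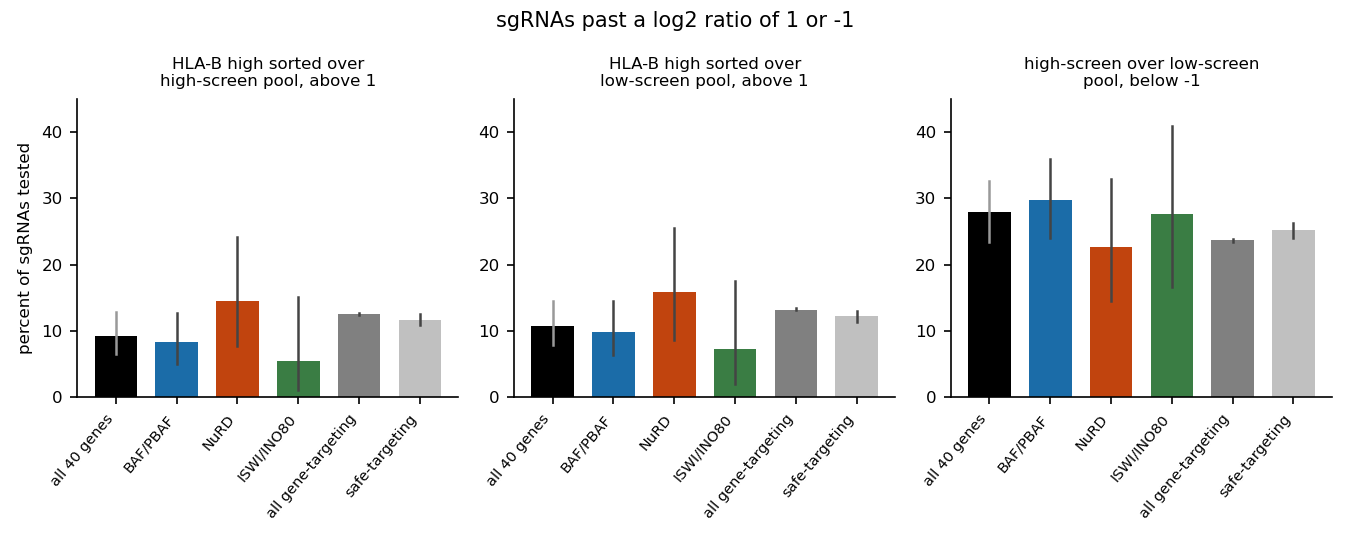
Percent of tested sgRNAs (y axis) above a log2 ratio of 1 in the HLA-B high sort over the high-screen pool (left) and over the low-screen pool (middle), and below -1 in the high-screen pool over the low-screen pool (right), for the 40 genes, each complex, all gene-targeting sgRNAs and safe-targeting sgRNAs. Lines are 95% Clopper-Pearson intervals, which cover counting error only; those of the complexes are wide and hold the shares of all gene-targeting sgRNAs (12.6%, 13.2% and 23.7%), except that of BAF/PBAF on the right, which lies above 23.7%.

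Further subunits of these complexes were counted as companions. Of 32 such genes 0 were called enriched, where 0.532% of all genes were against the high-screen pool and 0.645% against the low-screen pool. An unadjusted exact p below 0.05 for enrichment was found for 1 of 32 (CECR2) against the high-screen pool, where 5.24% of all genes had it, and for 2 of 32 (HDAC2 and MBD2) against the low-screen pool, where 5.49% had it. UCHL5, a deubiquitinase bound to INO80 and to the proteasome, was called depleted against the low-screen pool, with a median of -7.97, an RSA p of 9.75e-04, an exact p of 0.00728 and an adjusted p of 0.783. It was the only companion called depleted, against 0.586% of all genes in that comparison, and 0 of 32 were called against the high-screen pool, where 0.418% of all genes were. An unadjusted exact p below 0.05 for depletion was found for 1 of 32 (BCL11B) against the high-screen pool, where 5.68% of all genes had it, and for 4 of 32 (GLTSCR1, INO80D, MCRS1 and UCHL5) against the low-screen pool, where 5.67% had it. These companions were named after their values were seen.

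Between the unsorted pools none of the 40 genes was called, and their medians leaned towards lower values in the high-screen pool. RSA called 0 of 40 genes enriched in the high-screen over the low-screen pool, against 0.831% of all genes, and 0 of 40 depleted, against 0.733%. The median of the 40 gene medians was -0.35, against -0.02 over all genes, and 27 of 40 medians (67.5%) were below 0, against 51.9%. By complex the median of medians was -0.37 for BAF/PBAF, -0.39 for NuRD and -0.24 for ISWI/INO80. Scaling to safe-targeting sgRNAs put the median of the 40 at -0.22 and that of all genes at 0.10. Of 391 sgRNAs 109 (27.9%, interval 23.5% to 32.6%) were below -1, against 23.7% of all gene-targeting and 25.2% of safe-targeting sgRNAs, both inside the interval. BAF/PBAF had 73 of 245 (29.8%, interval 24.1% to 35.9%), an interval that lies above the share of all gene-targeting sgRNAs and holds that of safe-targeting sgRNAs. NuRD had 20 of 88 (22.7%, 14.5% to 32.9%) and ISWI/INO80 16 of 58 (27.6%, 16.7% to 40.9%). With at least 10 reads required in both pools the BAF/PBAF share was 27.0%, against 20.6% of all gene-targeting sgRNAs. The pools belong to different screens and differ in depth, and these cannot be told apart with 1 library each.

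BRD9 had the lowest median of the 40 in this comparison, where 10 or more reads were required in either pool. Its sgRNAs (chr5:850406-892916, minus strand) had summed reads of 25.5 CPM in the high-screen pool and 53.9 CPM in the low-screen pool, and a median log2 ratio of -1.29 with quartiles of -2.97 and -0.33. Of 10 sgRNAs 5 were below -1, including 4 at -2.85, -3.00, -3.17 and -3.68, and 1 was above 1. The exact p for depletion was 0.00885 and the adjusted p 0.638. The sgRNA at -3.68, with 4 reads in the high-screen pool and 243 in the low-screen pool, was tested only through the low-screen pool. With at least 10 reads required in both pools the BRD9 median was -0.89 over 9 sgRNAs, behind DPF2 (-0.95) and BAZ1B (-0.92), with an exact p of 0.00127 and an adjusted p of 0.667. SMARCD3 followed with summed reads of 47.5 CPM in the high-screen pool and 67.7 CPM in the low-screen pool, a median of -0.59, an exact p of 0.0323 and an adjusted p of 0.740. These were 2 of 40 genes with an unadjusted exact p below 0.05 for depletion, against 6.29% of all genes. The set depended on the read minimum. For SMARCD3, 1 sgRNA with 9 reads in the high-screen pool and 84 in the low-screen pool was tested only through the low-screen pool. With at least 10 reads required in both pools the exact p of SMARCD3 was 0.0571. SMARCD1 (0.0110, adjusted p 0.844) and MTA2 (0.0254, adjusted p 0.851) then fell below 0.05. With 10 reads in either pool BRD9 alone had a median below -1, where 5.00% of all genes did. The next lowest medians were -0.88 for BAZ1B, with summed reads of 33.8 CPM in the high-screen pool and 38.3 CPM in the low-screen pool, and -0.81 for SMARCD2, with 30.4 CPM in the high-screen pool and 50.8 CPM in the low-screen pool.

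At the other end stood BCL7B and CHD5. BCL7B (chr7:72950686-72972020, minus strand) had summed reads of 65.8 CPM in the high-screen pool and 34.8 CPM in the low-screen pool, a median log2 ratio of 1.32 and 6 of 10 sgRNAs above 1, with an exact p of 0.0218 and an adjusted p of 0.655 for enrichment. Of its sgRNAs 2 had 37 and 117 reads in the high-screen pool and 0 in the deeper low-screen pool. CHD5, the CHD paralog known from neurons, had 48.2 CPM in the high-screen pool and 34.0 CPM in the low-screen pool, a median of 1.04, and likewise 2 sgRNAs with 0 reads in the low-screen pool. Its exact p was 0.0397 and its adjusted p 0.732. These were 2 of 40 genes with an unadjusted exact p below 0.05 for enrichment, against 6.59% of all genes, and the same 2 of 40 had a median above 1, against 4.69%. The BCL7B and CHD5 sgRNAs with 0 reads in the low-screen pool were tested only through the high-screen pool. When at least 10 reads were required in both pools the median was 0.88 for BCL7B, still the highest of the 40, with an exact p of 0.0278 (adjusted p 0.853), and 0.41 for CHD5, with an exact p of 0.129 (adjusted p 0.942). CHD3, next in order, had 57.4 CPM in the high-screen pool, 52.9 CPM in the low-screen pool and a median of 0.49.

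**Figure D4:**
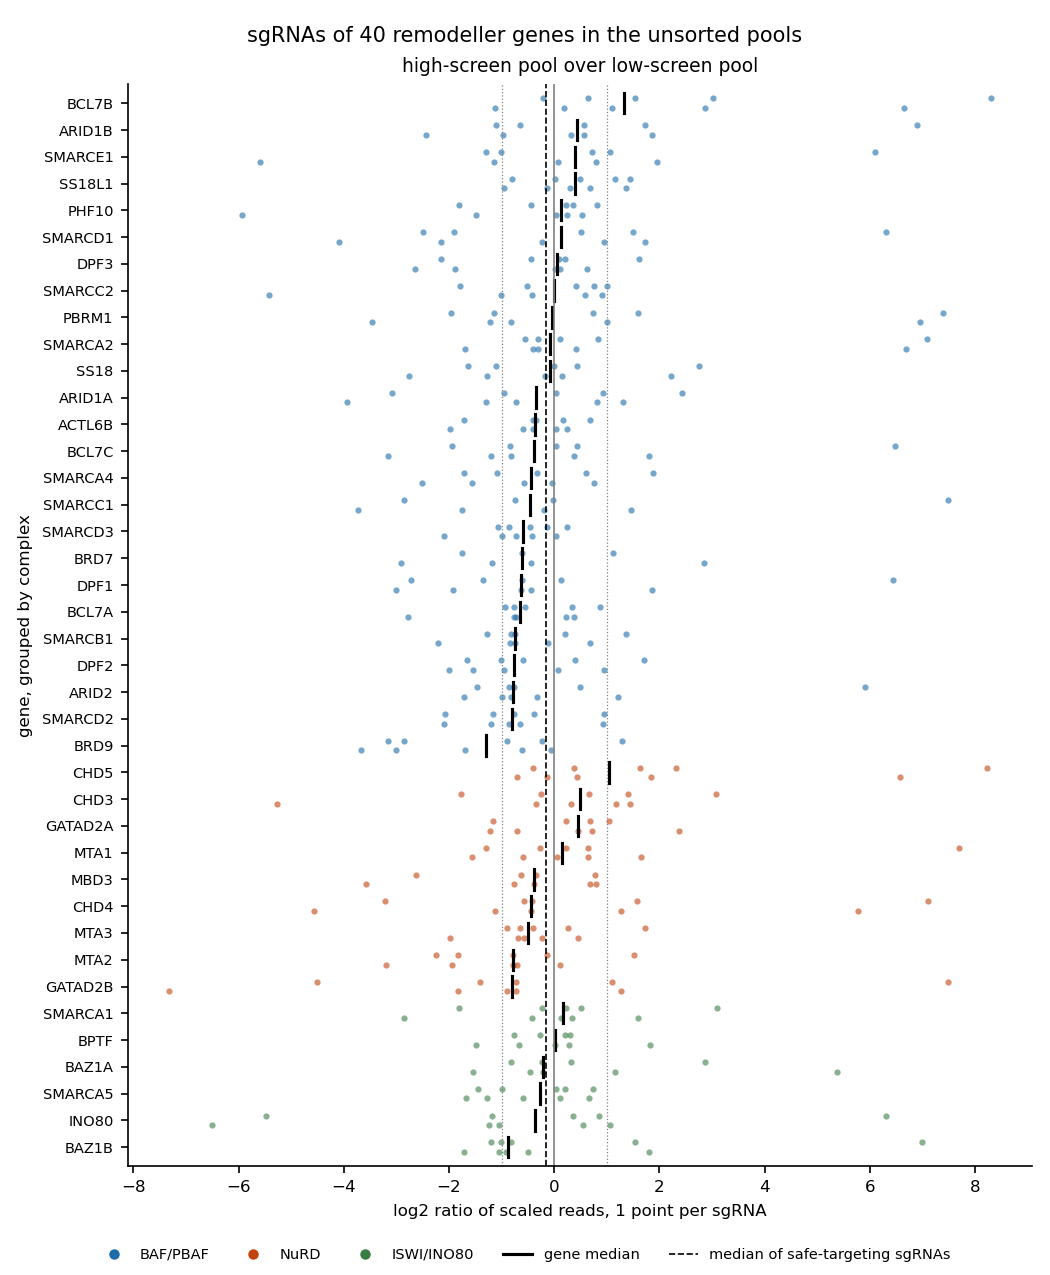
Log2 ratio of each sgRNA (points, x axis) in the high-screen pool over the low-screen pool for the 40 genes (y axis, grouped and coloured by complex, ordered by median). Black bars are gene medians, the dashed line is the median of safe-targeting sgRNAs (-0.16); medians run from -1.29 (BRD9) to 1.32 (BCL7B), and the points above 5 are sgRNAs with 0 reads in the low-screen pool.

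None of the main ATPases was called between the pools. SMARCA4 had a median log2 ratio of -0.44, SMARCA2 -0.09, CHD4 -0.44, SMARCA5 -0.28 and INO80 -0.36 in the high-screen over the low-screen pool, and the lowest exact p among these, for INO80, was 0.0805. BPTF was at 0.01, ARID1A at -0.35 and SMARCB1 at -0.74. Of the 32 companions 0 were called in either direction, where 0.831% of all genes were called enriched and 0.733% depleted. Proteasome genes were taken as a scale for genes needed for growth. Of these, PSMA3 and PSMB5 were called enriched in the high-screen over the low-screen pool, with medians of 1.72 (PSMA3) and 1.40 (PSMB5). Their adjusted exact p was 0.388 (PSMA3) and 0.527 (PSMB5). The median over 13 proteasome genes, with the sgRNAs of PSMA1 (listed under 2 gene identifiers) put together, was 0.71.

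Several BAF core subunits had low levels in the pools. The level was taken as the median CPM over the sgRNAs of a gene, which need no correction for length. In the high-screen pool 6 of 25 BAF/PBAF genes (24.0%) were below the percentile 10, where 10.2% of all genes fell with ties, and 0 of 9 NuRD and 0 of 6 ISWI/INO80 genes. In the low-screen pool 1 of 25 BAF/PBAF genes was, against 10.1% of all genes, and 1 of 9 NuRD genes (CHD5). The median percentile of BAF/PBAF genes was 22.7 in the high-screen pool and 40 in the low-screen pool. NuRD genes had 63.0 in the high-screen pool and 51.1 in the low-screen pool, and ISWI/INO80 genes 43.5 in the high-screen pool and 55.8 in the low-screen pool. The difference between the complexes was not tested. The library before infection is not analysed here, so that a low level is not a measured loss.

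The 6 low BAF/PBAF genes were 4 core subunits with DPF1 and BRD7, named here after their values were seen. SMARCB1 had a median level of 1.44 CPM in the high-screen pool and 2.44 CPM in the low-screen pool, at the percentile 5.48 in the high-screen pool and 16.6 in the low-screen pool. SMARCC1 had 1.60 CPM in the high-screen pool and 2.22 CPM in the low-screen pool, and SMARCD1 1.75 CPM in the high-screen pool and 2.21 CPM in the low-screen pool. SMARCE1 was low in both pools, with 1.44 CPM in the high-screen pool and 1.72 CPM in the low-screen pool (percentile 5.48 in the high-screen pool and 7.69 in the low-screen pool). BRD7 had 1.64 CPM in the high-screen pool and 2.27 CPM in the low-screen pool, whereas DPF1 had 1.44 CPM in the high-screen pool and 3.70 CPM in the low-screen pool, near the middle of all genes. For comparison, safe-targeting sgRNAs had a median of 3.86 CPM in the high-screen pool and 4.20 CPM in the low-screen pool. Of the proteasome genes, 10 of 13 were below the percentile 10 in the high-screen pool and 9 of 13 in the low-screen pool.

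Paralogs of these core subunits had higher levels, with no test of the difference. SMARCC2 had a median level of 3.28 CPM in the high-screen pool and 3.36 CPM in the low-screen pool, and SMARCD3 4.30 CPM in the high-screen pool and 6.04 CPM in the low-screen pool. Of the BAF ATPases, SMARCA4 was at the percentile 47.5 in the high-screen pool and 36.1 in the low-screen pool. SMARCA2 was higher, at 64.4 in the high-screen pool and 76.3 in the low-screen pool. Of the NuRD ATPases, CHD4 was at the percentile 16.1 in the high-screen pool and 15.5 in the low-screen pool, whereas CHD3 was at 88.1 in the high-screen pool and 88.0 in the low-screen pool. Genes with low levels in the pools had fewer reads to compare: SMARCB1 had 375 reads in the high-screen pool over 10 sgRNAs and SMARCC1 500, against 1530 for MTA1.

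**Figure D5:**
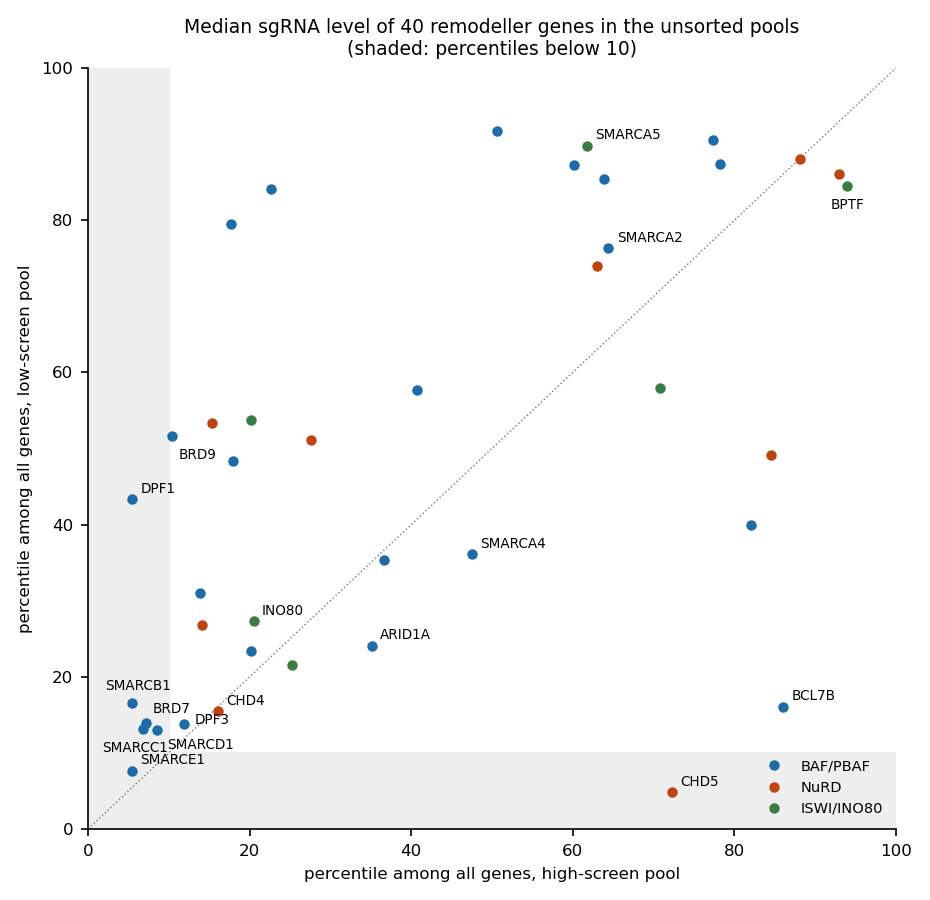
Median sgRNA level of each of the 40 genes as a percentile among all 20381 genes in the high-screen pool (x axis) and the low-screen pool (y axis), coloured by complex, with the percentiles below 10 shaded and a dotted line at equal percentiles. SMARCB1, SMARCC1, SMARCD1, SMARCE1 and BRD7 lie in the lower left corner, with CHD4 and DPF3 nearby, and BCL7B and CHD5 are high in the high-screen pool and low in the low-screen pool.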

How the data were processed

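The deposited files give read counts for each sgRNA, not normalized. The authors trimmed the reads, aligned them to the sgRNA sequences and counted them. Tools named in the submitters' processing notes were bcl2fastq, cutadapt and Bowtie2, whose versions are not given in the sources used here. No genome build enters the counts. Gene positions came from GENCODE release 44 lifted to GRCh37, matched by gene identifier. Reads matched to no sgRNA (21.9% in the HLA-B high sort, 20.6% in the high-screen pool and 12.1% in the low-screen pool) were left out, and an sgRNA that was not listed was given 0.

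Both libraries of a comparison were scaled to the mean of their matched totals, a pseudocount of 1 was added and the log2 ratio taken, where an sgRNA had 10 or more reads in the unsorted pool or, between the pools, in either pool. All 40 genes kept sgRNAs: 365 of 396 sgRNAs passed against the high-screen pool, 369 against the low-screen pool and 391 between the pools. RSA, the method the study names, was run over all genes from each end of the ranking. The exact p is the null of the RSA score under uniform ranks, with Benjamini-Hochberg adjustment over all genes. RSA and its null were tested on simulated data. Python 3.11.15, numpy 2.4.6, pandas 2.3.3, scipy 1.17.1 and matplotlib 3.10.9 were used.

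Named genes were those with an unadjusted exact p below 0.05, the 3 highest and 3 lowest medians per comparison, and SMARCA4, SMARCA2, ARID1A, SMARCB1, CHD4, SMARCA5, BPTF and INO80. Others were named after their values were seen, as were the tables of summed reads. The members and lists were chosen with earlier results of these data known. Alternatives changed the pseudocount, the read minimum, the scaling, the gene summary and the call rule. The files used here hold no sgRNA sequences, so none is shown.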

Additional observations from a re-analysis of the deposited data

How the results depend on the processing

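No paired analysis was possible because each group held 1 library, and no replicate could be left out. Under every alternative run, 0 of 40 genes were called in each direction of each comparison. Of the counts and shares of the 40 genes, 131 values stayed within the bounds set for them and 2 moved: the count of genes with a median log2 ratio below -1 in the high-screen over the low-screen pool was 1, against 0 with at least 10 reads in both pools and 2 with at least 50 reads in either pool. Gene medians moved past the bounds set for them in 4 cases, all against the high-screen pool with at least 50 reads there: BAZ1A at -1.56 (-4.31 with 10 reads), GATAD2B at -1.50 (-5.48), INO80 at -6.54 (-1.06) and SMARCA4 at -6.17 (-3.94). Each of the 4 still lay between the quartiles of its gene's sgRNAs with 10 reads. Counts over all genes moved more. Dropping each gene's most extreme sgRNA gave 192 enriched and 163 depleted genes against the high-screen pool (108 and 85 as reported), 198 and 198 against the low-screen pool (131 and 119), and 253 depleted between the pools (149). Requiring 10 reads in both pools gave 80 enriched genes (169) and 50 reads in either pool gave 111. Requiring 4 sgRNAs past a log2 ratio of 1 gave 144 depleted genes against the high-screen pool. Adding the pseudocount to raw counts, requiring 4 sgRNAs past 0 and thinning the low-screen pool to the depth of the high-screen pool were chosen after seeing the data. In the sort, depth limits genes with few pool reads most, since an sgRNA with fewer than 10 reads there was not tested.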
